A study of Mus musculus with 20 samples.

Results

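The neutrophil granule genes examined here were 10 genes picked by name from a count table of 55401 genes, namely Mpo, Elane, Prtn3 and Ctsg, whose proteins fill the early (primary, or azurophil) granules, and Ngp, Camp, Ltf, Mmp8, S100a8 and S100a9, which are made later in neutrophil maturation. Each name matched 1 row of the table. The RNA came from 5 organs (spleen, heart, kidney, liver and small intestine) of wild-type (WT) and Nsun6-knockout (KO) female C57BL/6J mice of 8 weeks, with 2 libraries for each organ and genotype and 20 in all. The KO mice were homozygous for a CRISPR/Cas9 deletion of exons 3 and 4 of Nsun6, which encodes an RNA cytosine methyltransferase, and the deletion was present in every cell type. The replicates were named as biological replicates, but the sources used here do not say whether the organs of a given number came from 1 animal. Gene counts summed to between 15897446 (heart KO replicate 1) and 44508197 (liver KO replicate 2) per library.

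Neutrophils build their granules in order as they mature in the marrow. Promyelocytes make the early granule proteins, which are the peroxidase of Mpo and the serine proteases of Elane, Prtn3 and Ctsg, and then stop transcribing them. Myelocytes and metamyelocytes next make the proteins of the specific and gelatinase granules, and S100a8 and S100a9 form the abundant cytosolic complex calprotectin, which monocytes also carry. The early messages therefore mark immature cells, whereas the late messages extend into older cells. The spleen of an adult mouse keeps some blood cell formation of its own. In a whole organ, fewer cells of a type and less RNA per cell cannot be told apart.

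The factors C/EBP, PU.1 and GFI1 are known to act on granule genes, so the 250 bases before the RefSeq start of each member (build GRCm38.p6) were searched on both strands for 3 short motifs. All 10 members matched a RefSeq promoter. The PU.1 motif GAGGAA was found before all 4 early genes, each time on the strand of the gene, and before 3 of the 6 late genes (Ltf, Mmp8 and S100a8), where it lay on the opposite strand. It occurred in 23.3% of all 32851 promoters. The only Prtn3 match, at -95 from the RefSeq start, lies inside its row of the count table, which begins 5191 bases before that start. The C/EBP motif TTGCNNAA was found before 4 of the 6 late genes (Ngp, Ltf, Mmp8 and S100a9) and before 0 of the 4 early genes, against 9.56% of all promoters. The GFI1 motif AAATCA was found before Ltf and Mmp8 and before 0 of the early genes, against 12.4% of all promoters. The 3 motifs do not overlap one another in the members. A match is a run of letters and not a binding site, and the letters are short. Below, 2 early and 2 late promoters are shown 5′ to 3′ to let the arrangement be seen, with the motifs in capitals. Elane and Ngp are shown only up to the start of the gene in the count table, which lies 65 and 61 bases before their RefSeq starts.
Elane, chr10:79886062-79886246, plus strand: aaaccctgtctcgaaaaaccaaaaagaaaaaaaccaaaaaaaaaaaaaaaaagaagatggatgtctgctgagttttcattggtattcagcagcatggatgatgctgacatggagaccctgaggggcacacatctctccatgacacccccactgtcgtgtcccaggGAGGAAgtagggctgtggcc
Ctsg, chr14:56102575-56102824, minus strand: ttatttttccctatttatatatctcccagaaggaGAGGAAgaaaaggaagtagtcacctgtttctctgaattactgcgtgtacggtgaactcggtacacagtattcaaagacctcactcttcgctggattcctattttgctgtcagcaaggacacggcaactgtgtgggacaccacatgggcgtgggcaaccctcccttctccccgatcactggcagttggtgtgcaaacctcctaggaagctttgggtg
Ngp, chr9:110419558-110419746, plus strand: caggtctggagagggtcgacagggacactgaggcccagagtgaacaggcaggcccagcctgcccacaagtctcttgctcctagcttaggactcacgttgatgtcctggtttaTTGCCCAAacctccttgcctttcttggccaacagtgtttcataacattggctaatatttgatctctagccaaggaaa
Mmp8, chr9:7558179-7558428, plus strand: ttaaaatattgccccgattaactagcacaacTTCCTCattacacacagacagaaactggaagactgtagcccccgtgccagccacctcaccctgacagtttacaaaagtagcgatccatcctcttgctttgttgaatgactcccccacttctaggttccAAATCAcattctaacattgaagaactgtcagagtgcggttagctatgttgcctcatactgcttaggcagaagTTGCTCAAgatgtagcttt
The capitals in Elane and Ctsg are the PU.1 letters, which begin at positions -85 and -216 from the RefSeq start. In Ngp they are a C/EBP match at -138. In Mmp8 they are, in order, the PU.1 letters of the opposite strand at -219, the GFI1 letters at -91 and a C/EBP match at -19. Camp, which has a cathelicidin product like its relative Ngp, held none of the 3 motifs in this window.

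Several members are neighbours. Prtn3 (chr10:79874476-79883174) and Elane (chr10:79886247-79888215) lie side by side on the plus strand. S100a8 (chr3:90668978-90670035) and S100a9 (chr3:90692632-90695721) form a pair on opposite strands. Camp (chr9:109847379-109849617), Ngp (chr9:110419747-110423012) and Ltf (chr9:111019271-111042767) share a stretch of chromosome 9, Mmp8 (chr9:7558456-7568485) lies far from them on the same chromosome, Mpo is at chr11:87793581-87804413, and Ctsg is at chr14:56099881-56102574. The Prtn3 row begins 5191 bases before the RefSeq start of the gene, so it also counts reads of an upstream exon.

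The organ labels were checked against marker lists. The summed level of 4 heart muscle genes was between 28160 and 35040 CPM (counts-per-million) in the heart libraries and at most 167.9 CPM elsewhere, and that of 5 B cell genes was between 2843 and 4209 CPM in the spleen and at most 328.5 CPM elsewhere. Several libraries stood apart from their group. In spleen WT replicate 2, 9 hepatocyte genes summed to 5308 CPM, with Alb at 4109 CPM as the most abundant, against 15.28 CPM in spleen WT replicate 1, 186 CPM in KO replicate 1 and 266.7 CPM in KO replicate 2. The median hepatocyte gene in that library reached 3.38% of its level in the liver. Heart WT replicate 2 held messages of other tissues and is described further down. Spleen KO replicate 1 had 13.08 CPM of 4 kidney genes, against 0.279 to 0.440 CPM in the other spleens. Liver WT replicate 1 had 8.94 CPM of heart muscle genes, against 0.247 to 1.19 CPM in the other livers. Among the small intestines, KO replicate 1 had 167.9 CPM of heart muscle genes (Actc1 64.35 CPM), against 5.01 to 21.2 CPM, and 20.96 CPM of 6 T cell genes, against 144.5 to 208 CPM, while WT replicate 1 had 328.5 CPM of B cell genes, against 1.58 to 47.0 CPM. The small intestine libraries also split by replicate number: Fabp6, a bile acid binding protein of the ileum, was at 7295 and 6339 CPM in WT and KO replicate 1 and at 0.211 and 0.379 CPM in WT and KO replicate 2. The part of these messages in the granule gene values was not tested.

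Nsun6 itself had 8.77 and 6.59 CPM in the WT spleens and 5.99 and 10.3 CPM in the KO spleens. Its log2 fold change of KO over WT lay between -0.67 ± 0.43 (SE; kidney) and 0.08 ± 0.34 (SE; spleen), with edgeR adjusted p of 0.999 or 1 in each organ. The row sums all exons, the deleted exons 3 and 4 with the rest, so it does not check the genotype labels.

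All 10 granule genes were highest in the spleen. Mpo, which encodes myeloperoxidase, was at 7.88 and 19.1 TPM (transcripts-per-million, corrected for gene length) in the WT spleens and 5.39 and 5.77 TPM in the KO spleens, whereas 14 of the other 16 libraries held no Mpo count. Elane, the gene of neutrophil elastase, was at 23.1, 50.2, 16.6 and 25.8 TPM in spleen WT replicates 1 and 2 and KO replicates 1 and 2. Ctsg, the gene of cathepsin G, was at 11.98, 22.9, 5.58 and 12.1 TPM in the same order. The small intestine held no count of any of these 3 genes in its 4 libraries. Against 3 counts over the 4 libraries, which is the limit that a count of 0 allows, the pooled spleen CPM was at least 464-fold higher for Mpo, at least 409-fold higher for Elane and at least 195-fold higher for Ctsg. Prtn3, the gene of proteinase 3, was at 11.8, 31.8, 9.70 and 12.1 TPM in the spleen, and was the early gene with the widest spread over the organs. It had counts in 17 of 20 libraries, up to 1.48 TPM in liver WT replicate 2, and its pooled spleen CPM was 28.1 times that of the liver (exact 95% counting interval 21.4 to 37.8). Without liver WT replicate 2, which held 32 of the 53 liver counts, it was 55.3 times (36.0 to 89.6).

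Among the late genes, S100a9 had the highest level per length in the spleen, with 871 and 1674 TPM in WT and 483 and 1218 TPM in KO. Its partner S100a8 followed at 430 and 801 TPM in WT and 221 and 605 TPM in KO. Camp, the gene of the cathelicidin antimicrobial peptide, was at 183, 448, 84.6 and 229.8 TPM in spleen WT replicates 1 and 2 and KO replicates 1 and 2. Ngp, the neutrophilic granule protein gene, was at 102, 258, 69.9 and 138.9 TPM. The order S100a9, S100a8, Camp, Ngp was the same in each of the 4 spleen libraries. Ltf, which encodes the iron-binding protein lactoferrin and is also used by glandular epithelia, was at 24.3, 58.0, 14.5 and 23.6 TPM, and the collagenase gene Mmp8 was the lowest late gene at 6.02, 10.8, 2.82 and 8.39 TPM.

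In 1 edgeR quasi-likelihood fit of all 20 libraries, a gene was called when its Benjamini-Hochberg adjusted p was below 0.1 and its fold above 2. All 10 members were called higher in the spleen than in the mean of the other 4 organs, where 25.2% of the 23159 genes tested were called higher. All 10 were also called higher against each organ alone, with backgrounds of 25.4% (small intestine), 29.7% (liver), 24.1% (kidney) and 27.5% (heart), and 10.2% of genes were called higher against all 4. The median fitted log2 difference was 9.02 over the early genes and 7.61 over the late genes, against 0.0054 over all genes. The fitted values of genes at 0 in an organ depend on the prior count, so the pooled counts give the plainer size. Spleen to the other 4 organs together, the ratio of pooled CPM ran from 39.8 for Ltf (interval 36.1 to 43.9) to 1140 for Mpo (488 to 3518). Both ends rested on heart WT replicate 2, which held 281 of the 457 Ltf counts and 4 of the 5 Mpo counts outside the spleen. Without that library the ratio was 95.3 for Ltf (81.95 to 111), 349 in place of 60.5 for Mmp8 and 704 in place of 147 for Ngp, Mpo reached 5263 (943 to 2.08e+05) on 1 count, and Prtn3 had the lowest, at 45.7 (37.3 to 56.6). All 10 members were called higher in the spleen than in the other 3 hearts, where 27.4% of genes were. Counts of 10 to 50 were even in 54.9% to 59.8% of cases per library, as arises when both mates of some read pairs are counted, so all counting intervals here cover counting error only and are too narrow.

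**Figure D1:**
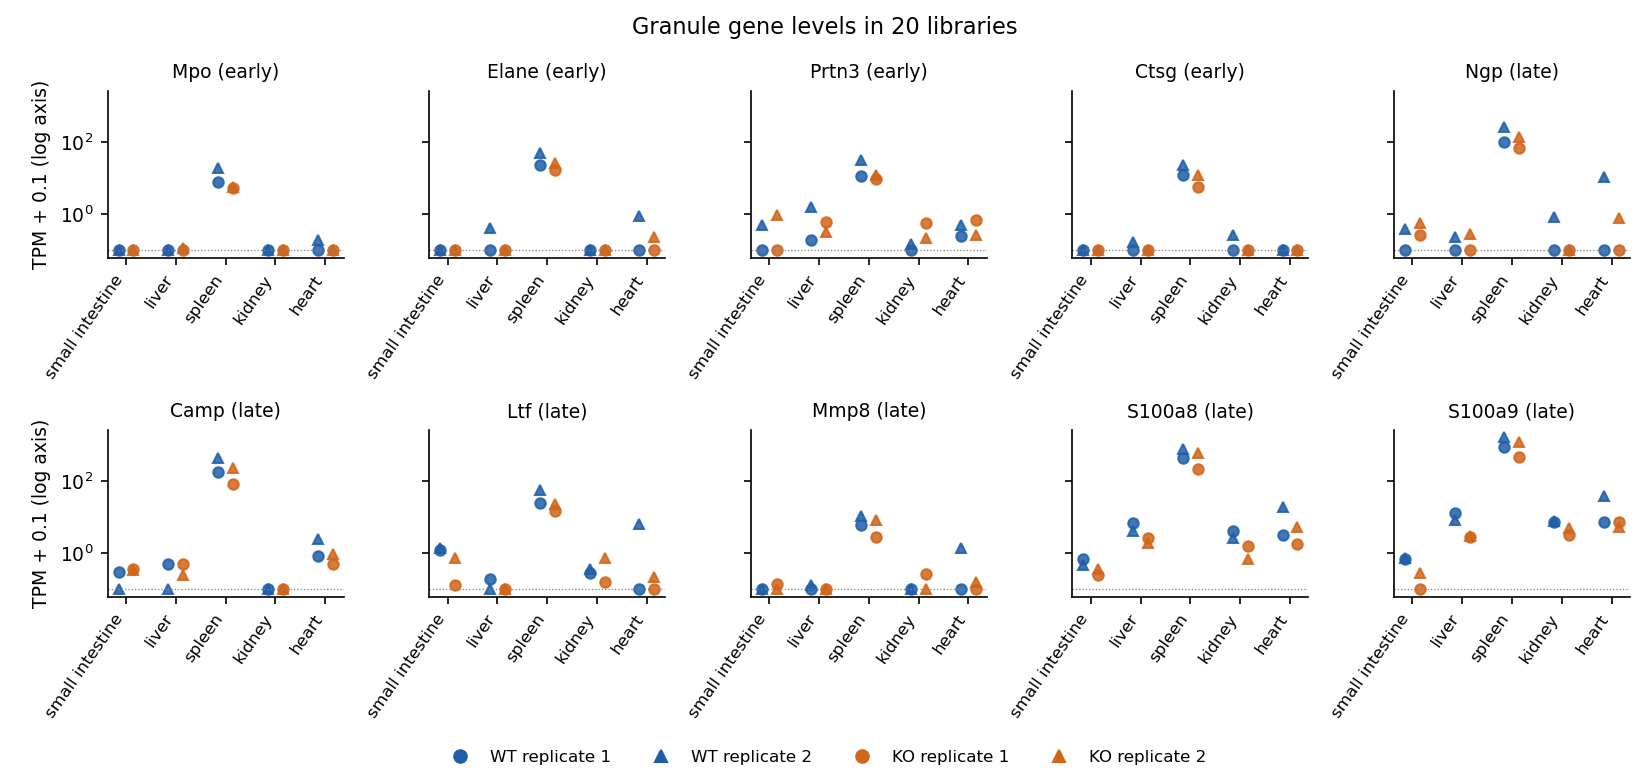
Level of each granule gene in the 20 libraries, as TPM plus 0.1 on a log axis, by organ, with WT in blue, KO in orange, circles for replicate 1 and triangles for replicate 2; the dotted line marks a level of 0. The 4 spleen libraries are above all others for every gene, Ltf and Ngp in heart WT replicate 2 stand above the rest of the heart, and S100a8 and S100a9 are the late genes seen in nearly every library.

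Outside the spleen, only S100a8 had counts in all 20 libraries, and S100a9 had counts in 19. S100a9 averaged 14.9 ± 16.4 TPM (SD, n = 4) in the heart, 6.83 ± 5.10 TPM in the liver, 5.85 ± 2.16 TPM in the kidney and 0.367 ± 0.327 TPM in the small intestine. S100a8 had the same order, with 7.54 ± 8.35, 3.803 ± 2.18, 2.19 ± 1.5 and 0.347 ± 0.183 TPM. Heart WT replicate 2 set the place of the heart: without it the heart means were 6.73 ± 1.26 TPM for S100a9 and 3.44 ± 1.84 TPM for S100a8 (SD, n = 3), both below the liver. The difference of heart and liver did not pass the test for either gene (edgeR adjusted p = 0.746 for S100a8 and 0.4 for S100a9, and 0.286 and 0.657 without that library). Liver and kidney differed for S100a8 (log2 difference 1.71 ± 0.51 SE, adjusted p = 0.016) but the difference for S100a9 did not pass the test (0.78 ± 0.47 SE, adjusted p = 0.222). The small intestine was called lower than liver, kidney and heart for both genes, where 19.3%, 22.6% and 25.9% of genes were called lower. Without heart WT replicate 2 it was still called lower than the heart for both genes, with a background of 21.4%. Kidney was called lower than heart for both with all libraries, where 18.1% of genes were, and for neither without heart WT replicate 2 (log2 differences of -1.06 and -0.48, edgeR adjusted p of 0.107 for S100a8 and 0.453 for S100a9), where 14.4% were. Liver was called higher than kidney for S100a8, with a background of 13.6%. Camp was at 0 counts in all 4 kidney libraries, which puts the spleen at least 2259-fold higher. Ltf had 126 counts in the 4 small intestine libraries (1.15 and 1.30 TPM in WT, 0.0304 and 0.670 TPM in KO), 1 of them in KO replicate 1, where Mmp8 had 1 count in all. In the kidney these genes had 40 and 4 counts.

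The balance of early to late messages was followed as the difference of their mean log2(TPM + 0.1), with no test. In the spleen it was -2.98 and -2.89 in WT and -2.70 and -3.40 in KO. The KO values lay on either side of the WT values, and the means were -2.93 ± 0.06 (SD, n = 2) and -3.05 ± 0.50 (SD, n = 2). As a share of all granule gene counts, the early genes made up 6.89% of 15681 counts in WT replicate 1 (Wilson 95% interval 6.51 to 7.30), 7.72% in WT replicate 2 (7.40 to 8.07), 8.57% in KO replicate 1 (7.98 to 9.20) and 4.97% in KO replicate 2 (4.66 to 5.30). The share of KO replicate 2 was the lowest and that of KO replicate 1 the highest, so the KO libraries enclosed the WT pair. In KO replicate 2 the late genes lay between the WT libraries (summed 2224 TPM, against 1617 and 3250 TPM in WT replicates 1 and 2) while the early genes were close to those of WT replicate 1 (55.7 TPM, against 54.8 and 124 TPM). Outside the spleen the difference ran from -4.65 in heart WT replicate 2 to -0.50 in liver WT replicate 2, but early genes rarely had counts there, so the pseudocount sets much of it. The 4 early genes together had 0 to 37 counts in those 16 libraries.

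**Figure D2:**
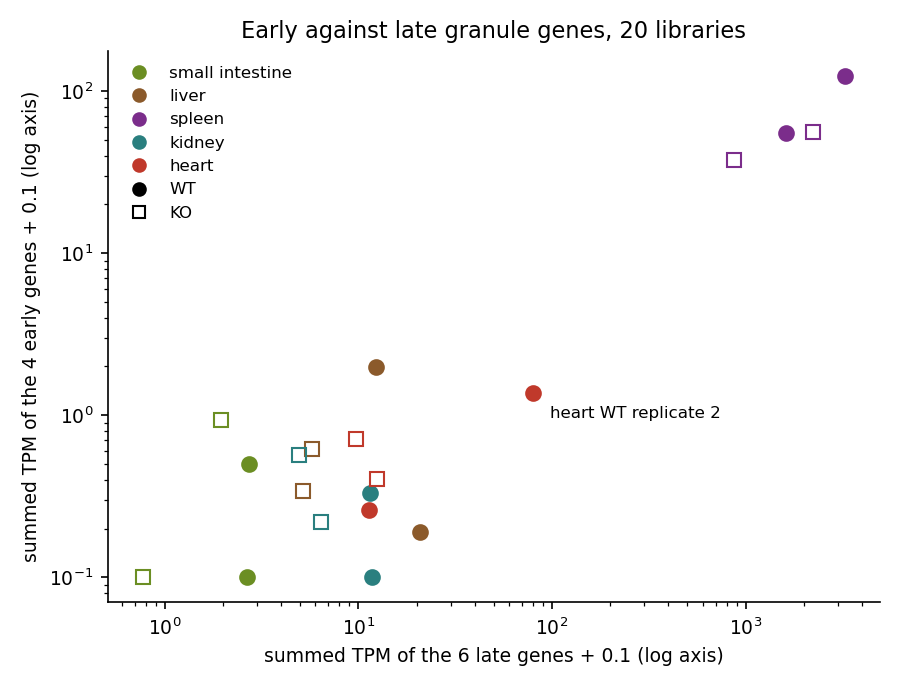
Summed TPM of the 4 early genes against that of the 6 late genes, each plus 0.1 on log axes, for the 20 libraries; filled circles are WT, open squares KO, and colours the organs. The spleen libraries form 1 cluster at 37.3 to 124 TPM early and 876 to 3250 TPM late, and heart WT replicate 2 has 80.0 TPM of late but 1.28 TPM of early genes.

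Whether loss of Nsun6 changed the granule genes was asked within each organ. In the spleen, none of the 10 members was called, where 0.00531% of 18834 genes were called lower and 0.218% higher. With DESeq2 none was called either, where 0.0267% of genes were called lower, and 1 of 10, Mpo, had an unadjusted p under 0.05 with each tool (0.694% of all genes lower at that p in DESeq2). Without the filter on low counts edgeR called Mpo (-1.14, adjusted p = 0.00585), where 0.177% of 29979 genes were called lower. All 10 log2 fold changes were below 0 (48.7% of all genes were), with a median of -0.85 over the early genes and -0.54 over the late genes, against 0.0072 over all genes. Mpo had the lowest value. It measured 9.77 and 25.1 CPM in WT, scaled by edgeR's TMM factors within the organ, and 7.58 and 8.30 CPM in KO, a log2 fold change of -1.13 ± 0.44 (SE), with an unadjusted p of 0.0432 and an adjusted p of 0.92 from edgeR. Mpo was the only member whose groups did not overlap, where 14.4% of all genes lay lower in KO without overlap and 0.828% had an unadjusted p under 0.05 in that direction. Elane measured 8.24 and 19.02 CPM in WT and 6.70 and 10.7 CPM in KO (-0.65 ± 0.45 SE). Prtn3 measured 7.41 and 21.2 CPM in WT and 6.90 and 8.81 CPM in KO (-0.86 ± 0.51 SE). Ctsg measured 4.48 and 9.12 CPM in WT and 2.37 and 5.24 CPM in KO (-0.84 ± 0.51 SE). In each of these 3 the higher KO library lay above the lower WT library.

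The late genes had the same shape with a larger spread. Ltf measured 30.4 and 77.1 CPM in WT and 20.5 and 34.2 CPM in KO (-0.97 ± 0.57 SE). Camp measured 50.2 and 130.8 CPM in WT and 26.3 and 73.3 CPM in KO (-0.86 ± 0.86 SE), and Ngp 45.3 and 121.6 CPM against 35.1 and 71.4 CPM (-0.65 ± 0.71 SE). These 3 granule protein genes were lowest in KO replicate 1 and highest in WT replicate 2. For Mmp8 the values were 5.28 and 10.1 CPM in WT and 2.81 and 8.56 CPM in KO (-0.44 ± 0.60 SE). S100a8 measured 108 and 214 CPM against 63.0 and 177 CPM (-0.43 ± 0.73 SE), and S100a9 165 and 337 CPM against 104 and 268 CPM (-0.43 ± 0.69 SE). Every adjusted p of these 9 genes was 1 in edgeR.

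The 4 spleen libraries ranked alike for nearly all members. WT replicate 2 was the highest and KO replicate 1 the lowest for all 10 genes. For 9 of 10, both replicate 2 libraries were above both replicate 1 libraries, where 15.5% of all genes had that order. Of the scaled CPM, WT replicate 2 was 1.91 to 2.86 times WT replicate 1, while within a replicate number KO was 0.524 to 0.931 times WT in replicate 1 and 0.330 to 0.847 times WT in replicate 2. The early genes had a median ratio of KO to WT of 0.794 in replicate 1 and 0.488 in replicate 2, and the late genes 0.606 and 0.691. The values rest on single libraries, those of Mpo and Ltf among them. Before scaling, Mpo was at 10.2 and 25.5 CPM in WT replicates 1 and 2 and at 7.46 and 7.96 CPM in KO. Ltf was at 31.6 and 78.1 CPM in WT and at 20.2 and 32.8 CPM in KO. For both genes the difference from KO was thus much smaller in WT replicate 1. Without WT replicate 2, the library with hepatocyte messages, 2 of 4 early and 2 of 6 late genes were lower in KO, the medians were -0.09 and 0.12, and none was called. Without WT replicate 1, all 10 were lower and 3 were called lower (Mpo at -1.66, Prtn3 at -1.43 and Ltf at -1.50, edgeR adjusted p of 0.0229, 0.0793 and 0.042), where 1.51% of 19970 genes were called lower, all 9 hepatocyte genes among them. The WT group is then the library with hepatocyte messages alone, its spread is taken from the KO pair, and these calls compare that library with the KO pair. Without KO replicate 1, 4 of 4 early and 3 of 6 late genes were lower (medians of -0.56 and -0.09), and without KO replicate 2 all 10 were (medians of -1.11 and -1.36), with none called in either case. Whether the tissue in WT replicate 2 has a part in its granule gene levels was not tested. The liver libraries themselves held at most 37 early and 158 late counts.

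**Figure D3:**
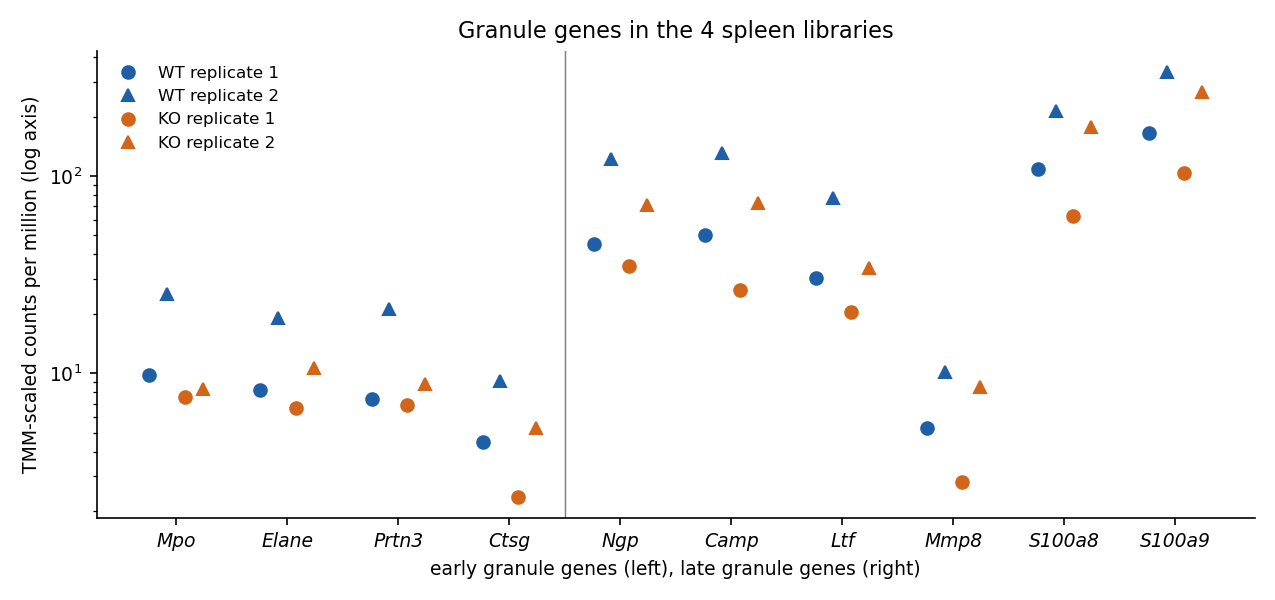
TMM-scaled CPM, on a log axis, of the 10 granule genes in the 4 spleen libraries (WT blue, KO orange, circles replicate 1, triangles replicate 2). WT replicate 2 is the top point and KO replicate 1 the bottom point of every gene, and KO lies wholly below WT for Mpo alone.

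In the other organs 8 member and organ pairs had enough counts for a test, and none was called by edgeR or DESeq2. An unadjusted p under 0.05 was reached by 1 pair in edgeR, and by S100a9 in the liver and S100a8 and S100a9 in the heart in DESeq2, which was run without the low-count filter and where 1.1% and 0.454% of genes were lower at that p. The share of genes called lower was 0% in each of these 4 organs in edgeR, and 0.0525%, 0.0781%, 0% and 0.0107% in the small intestine, liver, kidney and heart in DESeq2. In the liver, S100a9 measured 2.30 and 1.85 CPM in WT and 0.612 and 0.660 CPM in KO, a log2 fold change of -1.70 ± 0.46 (SE) with an unadjusted p of 0.00529 and an adjusted p of 0.871 from edgeR. In that organ 1.96% of genes were lower with an unadjusted p under 0.05. S100a8 measured 1.53 and 1.22 CPM in the WT livers and 0.773 and 0.542 CPM in the KO livers (-1.08 ± 0.51 SE). Both calprotectin genes were thus lower in both KO livers than in both WT livers, as were 16.1% of all genes. Heart muscle genes moved the same way in this comparison, with a median of -3.61 over the 2 tested. Both had an unadjusted p under 0.05 in edgeR. They were highest in WT replicate 1, as S100a8 and S100a9 were, and their part was not tested. Prtn3 in the liver measured 0.0512 and 1.12 CPM in WT and 0.386 and 0.165 CPM in KO, and its value of -1.06 ± 1.19 (SE) turned to 2.34 without WT replicate 2.

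In the kidney, S100a8 measured 0.869 and 0.930 CPM in WT and 0.394 and 0.159 CPM in KO (-1.68 ± 0.82 SE), and S100a9 1.20 and 2.05 CPM against 0.631 and 1.04 CPM (-0.95 ± 0.66 SE). Neither gene's groups overlapped, where 11.2% of genes were lower without overlap. The counts are few: 60 of S100a8 and 122 of S100a9 in the 4 kidney libraries. In the small intestine Ltf measured 1.40 and 2.03 CPM in WT and 0.0342 and 0.962 CPM in KO (-1.79 ± 1.40 SE), again without overlap, where 11.6% of genes were. This value ran from -5.52 without KO replicate 2 to -0.83 without KO replicate 1, the library with heart muscle messages and 1 Ltf count. In the heart, S100a8 and S100a9 had values of -1.65 ± 0.82 and -1.75 ± 0.76 (SE), which became -0.08 and -0.33 without WT replicate 2. The headers of both heart replicate 2 columns carry the mark 'pre', which no other column has, and these libraries held 36090637 and 41763236 counts, against 17959542 and 15897446 in replicate 1. Within the unmarked pair KO was 0.594 times WT for S100a8 and 1.10 times for S100a9, and within the marked pair 0.253 and 0.125 times. All 18 pairs tested in the 5 organs were below 0, where the share of all genes below 0 was 49.4% in the liver, 49.6% in the small intestine, 51.8% in the heart and 53% in the kidney. The low-count filter set which pairs were tested, and those left out ran both ways before scaling. Prtn3 in the kidney was at 0 and 0.0395 CPM in WT and 0.317 and 0.0807 CPM in KO. Ngp in the heart was at 0 and 4.63 CPM in WT and 0 and 0.287 CPM in KO. The members are not independent of each other, and if organs of 1 number came from 1 mouse the organs are not either. A test of whether the KO value differed between organs called 0 of 10 members and 0% of the 23159 genes; 0 members and 535 genes had an unadjusted p under 0.05 in this edgeR F test.

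**Figure D4:**
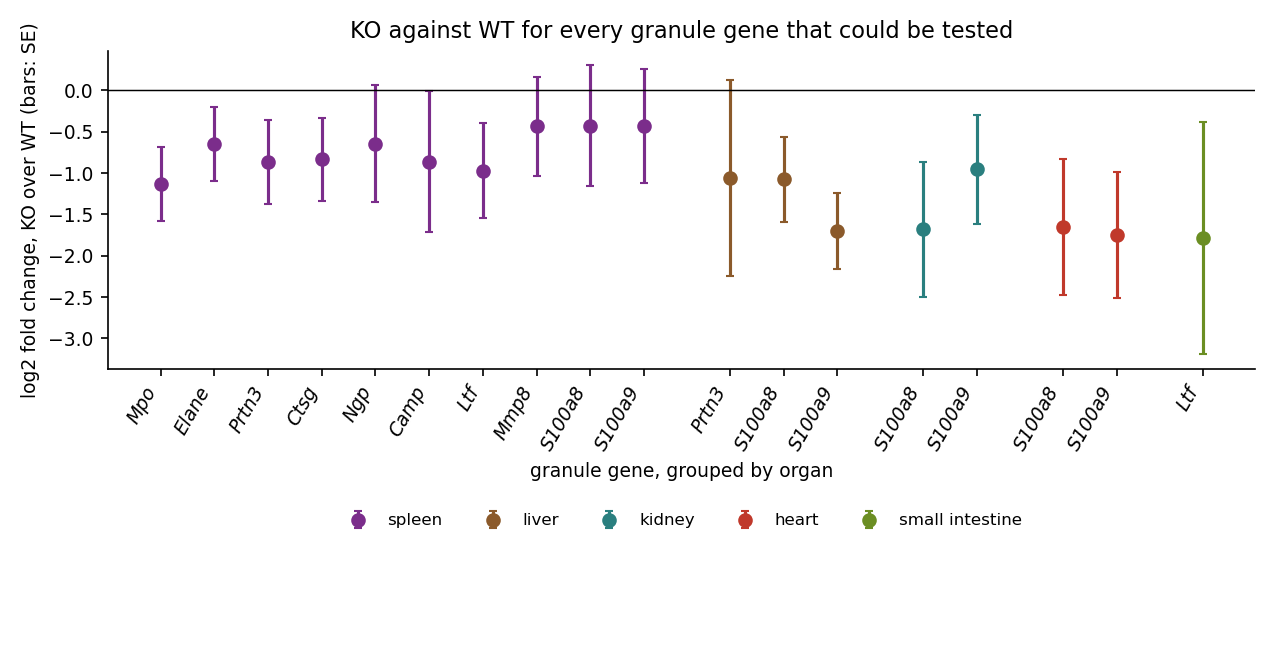
Log2 fold change of KO over WT, with its standard error as bars, for the 18 pairs of granule gene and organ with enough counts to test, coloured by organ. All points are below 0, most bars in the spleen reach close to 0 or beyond it, and the lowest adjusted p is 0.871, for S100a9 in the liver.

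Other genes of the neutrophil programme were read from lists of companions. Of 8 regulators of granulocyte formation, 5 were called higher in the spleen than in the mean of the other 4 organs, where 25.2% of all genes were, as above, and 3 were called higher against each organ alone, where 10.2% were. Gfi1, a repressor needed for neutrophil formation, had a log2 difference of 4.32 ± 0.35 (SE), Runx1 3.95, Irf8 3.18, Spi1 (which encodes PU.1) 2.85, and Cebpe, the C/EBP factor of late granule genes, 2.71. Gfi1 was not called against the small intestine alone, and Cebpe was higher in the liver (mean of 2.79 CPM) than in the spleen (1.25 CPM). Cebpa was called lower (-1.73 ± 0.24 SE), where 17.5% of all genes were; it is also a factor of hepatocytes. Of 17 other granule and processing genes, 13 were called higher than the mean of the other organs and 8 against each alone, with Ms4a3, a marker of granulocyte and monocyte progenitors, at 9.04 and Fcnb (ficolin B) at 8.03. Serpinb1a, Pglyrp1 and Ceacam10, though called, had a higher mean CPM in the small intestine (1093, 73.5 and 11.1) than in the spleen (198.6, 24.4 and 0.634). The Ceacam10 mean rested on small intestine WT replicate 1, at 39.4 CPM, against 0.644 to 3.31 CPM in the other small intestines. All 5 NADPH oxidase subunit genes and 15 of 16 mature neutrophil genes were called higher than the mean of the other organs, and 4 and 10 against each alone. Of these, Cyba was higher in the kidney (223 against 143 CPM) and Wfdc21 in the liver (386 against 7.60 CPM). The chemokine receptor gene Cxcr2 was at 7.17, while G0s2, also a lipolysis inhibitor of fat and liver, was called lower (-1.84).

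None of these companions was called between KO and WT spleens by edgeR or DESeq2. Cebpb, the gelatinase gene Mmp9 and the G-CSF receptor gene Csf3r had an unadjusted p under 0.05 in edgeR, and 1 regulator, 1 other granule gene and 2 mature neutrophil genes did in DESeq2. Of the regulators, 7 of 8 were below 0 (median -0.18). Cebpb, a C/EBP factor of emergency granulopoiesis, was the lowest at -1.02 ± 0.40 (SE; 7.91 and 9.95 CPM in WT, 5.95 and 2.84 CPM in KO, edgeR adjusted p = 0.875), and Cebpa the highest at 0.05 ± 0.22 (SE). Of the other granule genes, 15 of 17 were below 0 (median -0.40), from Hp, haptoglobin, at -1.56 ± 0.97 (SE) to Ceacam10 at 0.22 ± 0.59 (SE). Hp, which hepatocytes also make, was at 61.9 CPM in WT replicate 2 and between 10.9 and 14.3 CPM in the other 3 libraries. Of the mature neutrophil genes, 14 of 16 were below 0 (median -0.37), from Wfdc21 at -1.25 ± 0.77 (SE) to the formyl peptide receptor gene Fpr1 at 0.15 ± 0.28 (SE). The NADPH oxidase genes, shared by all phagocytes, were within 0.19 of 0. Without WT replicate 1, Hp (-2.30) and Wfdc21 (-1.93) were called lower (edgeR adjusted p of 0.000896 and 0.0521, background 1.51%), both of them genes that were higher in liver, with medians of -0.76 over the other granule and -0.72 over the mature neutrophil genes. Without WT replicate 2 the other granule genes were 8 lower and 9 higher (median 0.01) and the mature neutrophil genes 8 and 8 (median -0.01).

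Lists of other blood lineages were read in the same spleen fit. Of 6 megakaryocyte genes 5 were tested, all below 0 (median -0.57), and 3 of them (Pf4, Itga2b and Vwf) had an unadjusted p under 0.05 in edgeR, as 3 did in DESeq2. Their summed level was 406 and 610 CPM in WT and 301 and 404 CPM in KO, highest in WT replicate 2 and lowest in KO replicate 1 as for the granule genes, and without WT replicate 2 the median was -0.21 with 4 of 5 below 0. All 5 B cell genes were below 0 (median -0.30), 1 of them (Pax5) with an unadjusted p under 0.05, and without WT replicate 1, WT replicate 2, KO replicate 1 and KO replicate 2 in turn 5, 5, 4 and 5 were (medians of -0.24, -0.37, -0.53 and -0.12). None of the megakaryocyte and B cell genes was called. Of 6 T cell genes 1 was below 0 (median 0.11), but all 6 were without WT replicate 2 (median -0.20), 4 without KO replicate 2 (median -0.03) and none without WT replicate 1 (median 0.44). Of 8 mast cell and basophil genes tested 3 were below 0 (median 0.20). All 11 monocyte and macrophage genes were tested, of which 3 were below 0 (median 0.08), and 8 without KO replicate 1 (median -0.12). Of 7 eosinophil genes 1 was below 0 (median 0.79). That median was 2.34 without WT replicate 2, where 2 genes were called higher, 0.26 without WT replicate 1, 1.26 without KO replicate 1 and -0.02 with 4 of 7 below 0 without KO replicate 2. Of 7 blood progenitor genes all were below 0 (median -0.30), and 5 were without KO replicate 2 (median -0.11). None of the T cell, mast cell, monocyte, eosinophil and progenitor genes was called with all 4 libraries. Erythroid genes were higher: 4 of 10 were called (9 with DESeq2), where 0.218% of all genes were called higher in the edgeR fit, among them Slc4a1, the anion exchanger of red cells (316.6 and 358.7 CPM in WT, 1013 and 990.1 CPM in KO, 1.57 ± 0.16 SE), Epb42 (1.67) and Alas2 (1.34), with edgeR adjusted p of 0.0656, 0.0656 and 0.0839. All 10 lay above WT in both KO libraries, as did 17% of all genes. Among 8 cell division genes Mki67 was called (4 were with DESeq2), at 454.5 and 554 CPM in WT and 1322 and 1337 CPM in KO (1.40 ± 0.17 SE, adjusted p = 0.0711). For both lists the DESeq2 counts stand against a larger background than 0.218%. DESeq2 called more spleen genes than edgeR (totals under the processing), and 8 of 29979 genes were called lower. Every one of the 18 erythroid and division genes stayed above 0 whichever library was left out. Their medians ran from 1.15 to 1.65 for the erythroid and from 0.72 to 1.40 for the division genes. Without WT replicate 1, WT replicate 2, KO replicate 1 and KO replicate 2 in turn, 6, 9, 4 and 0 erythroid genes and 1, 6, 0 and 0 division genes were called higher. The background in those 4 fits was 0.351%, 1.32%, 0.1% and 0% of genes, and without KO replicate 2 no gene was called higher.

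Heart WT replicate 2 differed from the other hearts in its late genes. Ltf was at 7.79 CPM there, 0.144 CPM in KO replicate 2 and 0 in WT replicate 1 and KO replicate 1. Ngp was at 4.63, 0.287, 0 and 0 CPM in the same order, and Mmp8 at 1.16, 0.0479, 0 and 0 CPM. S100a9 was at 7.37 CPM, against 0.934 to 1.64 CPM in the other 3, and S100a8 at 4.93 CPM, against 0.503 to 1.27 CPM. The early genes did not follow to the same extent: they made up 23 of 981 granule gene counts in that library, which is 2.35% (Wilson interval 1.57 to 3.49), below the 4.97% to 8.57% of the spleen, and Ctsg was at 0.

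The makeup of its late messages was also unlike the spleen. Ltf had 11.7 counts for each Camp count in heart WT replicate 2 (281 to 24, exact 95% counting interval 7.71 to 18.6), and between 0.467 and 0.779 in the 4 spleen libraries. For Ngp the ratio to Camp was 6.96 (4.52 to 11.2), against 0.902 to 1.33 in the spleen. For Mmp8 it was 1.75 (1.04 to 3.02), against 0.0772 to 0.117. Camp was thus low for its companions in that library, by a common measure in which gene length cancels. Markers of other tissues moved with these genes. From lists made after the values were seen, the 6 lymph node and thymus genes summed to 54.9 CPM (Glycam1 41.9 CPM, Ccl21a 7.48 CPM, Rag1 3.85 CPM) with all 6 counted, against 0, 0 and 0.239 CPM in the other hearts. The 10 airway and lung genes, all counted, summed to 119.5 CPM (Bpifa1 48.1 CPM, Scgb1a1 46.6 CPM), against 8.12 to 37.0 CPM, while the alveolar gene Sftpc was at 6.98 CPM there and at 7.24 CPM in WT replicate 1. The 5 B cell genes summed to 29.8 CPM, with Ms4a1 at 10.03 CPM the highest, against 3.29 to 4.09 CPM. Their part in the granule gene counts was not tested. With WT replicate 1 left out, so that this library alone stands for WT and the KO pair gives the spread, Ltf (-6.23) and Ngp (-4.61) were called lower in KO (edgeR adjusted p of 0.000146 and 0.0392), where 0.115% of 18291 genes were. These calls compare 1 library that holds messages of other tissues with the KO pair.

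**Figure D5:**
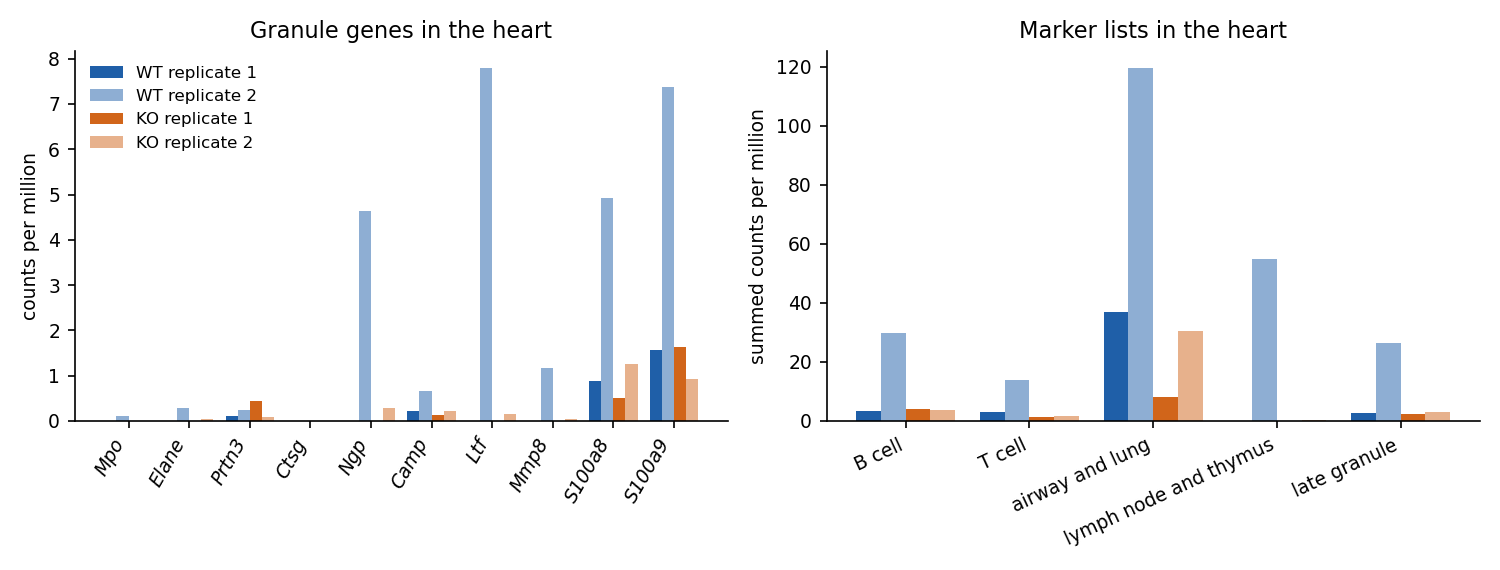
Left, CPM of each granule gene in the 4 heart libraries; right, the summed CPM of marker lists in the same libraries (blue WT, orange KO, pale shades replicate 2). WT replicate 2 has the tallest bar for Ltf, Ngp, Mmp8, S100a8 and S100a9 and for all lists shown.

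Genes with the most similar pattern were sought over the 20 libraries after each organ's mean was subtracted, among 23159 genes, as a description. Closest to the mean of the early genes were Errfi1 (Pearson r = 0.817, Spearman rho = 0.785), Mfsd2a (0.77 and 0.761), Gm50287 (0.764 and 0.806), Ugt1a1 (0.761 and 0.69) and Thbs1 (0.753 and 0.716). Without the 2 most distant libraries, spleen WT replicate 2 and liver WT replicate 2, r was between 0.642 and 0.775. None of these 5 is a granule gene, and Errfi1 was at 83.4 CPM in spleen WT replicate 2 against 11.5 to 29.4 CPM in the other spleens. Closest to the late genes were Pigr, the transporter of IgA across epithelia (0.929 and 0.797), Rassf6 (0.875 and 0.753), Gm15448 (0.863 and 0.669), Gm40652 (0.861 and 0.767) and Rag1 (0.83 and 0.6). Without heart WT replicate 2 these fell to between 0.6 and 0.842. Without the 2 most distant libraries, heart WT replicate 2 and heart KO replicate 1, they were between 0.493 (Rag1) and 0.809 (Pigr). The libraries may not be independent, and the genes were picked as the closest of 23159, so the coefficients order genes and test nothing.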

How the data were processed

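The authors captured poly(A) RNA, made stranded libraries, trimmed reads with cutadapt, aligned them to mm10 with HISAT2 2.1.0 and deposited raw gene counts made by featureCounts 2.0.1 on Ensembl GRCm38 exons, 1 column for each of 20 libraries. The deposited command line shows no strand option, whereas the methods name one. Depth is given with the report. TPM was computed here from the counts and the exon lengths in the table. Counts were tested with edgeR (glmQLFit robust, filterByExpr, TMM) after a check on simulated data: KO against WT within each organ, and organs and the interaction in a fit of all 20 libraries. A gene was called at a Benjamini-Hochberg adjusted p below 0.1 and a fold above 2. With 2 libraries a group, each p-value weighs a difference against the spread between these few libraries, which edgeR estimates by sharing information over genes. The members and lists were chosen with earlier results of these data known. All 10 members were named in every organ, companions where called or at the ends of their list, with further companions, Hp's levels and the heart markers chosen after their values were seen. Of 17 mature neutrophil genes, BC100530 matched no row. DESeq2, RLE, no filter, a replicate block and libraries left out were tried.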

Additional observations from a re-analysis of the deposited data

Results flagged for a closer look

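Of 33 groups of 4 libraries of an organ that were checked for a library far from the others, 3 had such a library. Chance gives about 1 in 20 for independent groups of normally spread values. The groups here are not independent, since those of an organ share its libraries and the late genes include S100a9. That rate is thus a rough guide only. Prtn3 in spleen WT replicate 2 (31.8 TPM) stood apart from the other spleens. S100a9 in heart WT replicate 2 (39.5 TPM) did so among the hearts, as did the summed level of the late genes in the same library (80.0 TPM).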

How the results depend on the processing

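All 10 members stayed called higher in the spleen under every alternative run (DESeq2, RLE, no filter, WT only, replicate block, each of 20 libraries left out). The KO results moved. Without a filter 1 member was called in the spleen (Mpo, -1.14, edgeR adjusted p = 0.00585). Leaving out 1 library gave 0 to 3 members called in the spleen and 0 to 2 in the heart, and ranges of -1.13 to 0.0704 for Elane, -1.43 to 0.0795 for Prtn3, -1.24 to 0.23 for Ngp, -1.44 to 0.13 for Mmp8, -1.34 to 0.14 for S100a8 and -1.26 to 0.17 for S100a9, and of -2.05 to 2.34 for Prtn3 in the liver. Without heart WT replicate 2, chosen after seeing the data, the difference of liver and heart turned to 0.66 for S100a8 and 0.31 for S100a9. Among the member values given for KO against WT and for the spleen, no other changed direction under any alternative. Several organ differences with the heart, given only here, turned without heart WT replicate 2. Kidney against heart went from -0.85 to 4.10 for Ltf, -4.59 to 0.03 for Ngp and -3.12 to 0.51 for Mmp8. Liver against heart went from -3.36 to 1.23 for Ngp and -1.96 to 0.73 for Elane. Both Ngp differences were called with all libraries (background 18.1% for kidney and 24.8% for liver) and not without that library. Medians of companion lists that did are given with them. Genes called were 8 in the liver (DESeq2 53, no filter 122, 1 fit of all 20 libraries 0, libraries left out 2 to 205), 42 in the spleen (adjusted p under 0.05 0, DESeq2 208, no filter 313, 1 fit 0, libraries left out 0 to 371), 0 in the small intestine (DESeq2 51), 0 in the kidney (libraries left out 1 to 2938) and 0 in the heart (DESeq2 3, no filter 13, libraries left out 0 to 22). Without a filter, where every gene with a count was tested, the interaction test called 973 genes and 2 members, against 0 and 0. The cause of this difference was not tested. The 973 genes are not given as a share of those tested, so the 2 calls are not read as a result about the members.

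No sample label says that a number marks a shared animal, litter or day, but both heart replicate 2 columns share a header mark. Same-numbered libraries deviated together with r of 0.00707 in the spleen and 0.0376 to 0.57 in the other organs. The replicate block gave 20 genes in the liver, 6 in the heart and 0 granule genes in every organ. In the spleen, 6 members then had an unadjusted p under 0.05 in edgeR, all lower in KO, as did 0.621% of all genes in that fit, with a lowest adjusted p of 0.208. In the heart 1 member reached that p with the block, against 0 without it, and in the liver 1 did with and without it. The share of all genes lower at that p with the block was 1.32% in the heart and 1.98% in the liver.

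The early minus late mean depends on how it is made. With a pseudocount of 1 TPM it was -0.40 (WT) and -0.15 (KO) in the small intestine, -0.56 in KO liver, -0.94 (WT) and -0.55 (KO) in the kidney and -0.88 in KO heart. As a log2 ratio of summed TPM it was -5.28 (WT) and -3.94 (KO) in the liver, -4.80 and -4.94 in the spleen, -4.55 in KO kidney, and -6.06 and -4.66 in the heart, with no value where a library had no early count. As a median over genes it was -2.15 and -1.40 in the small intestine, -1.22 in KO liver, -3.58 and -3.62 in the spleen and -1.47 in WT kidney. With 1 gene or library left out, WT and KO ranged from -1.89 to -1.15 and -1.36 to -0.82 (small intestine), -2.51 to -0.50 and -1.95 to -0.84 (liver), -3.77 to -2.33 and -3.87 to -2.41 (spleen), -2.66 to -1.40 and -1.87 to -0.72 (kidney), and -4.65 to -2.04 and -2.59 to -1.35 (heart). Depth limits the early genes outside the spleen: 3 counts were worth 0.0674 to 0.189 CPM.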
